A study of Mus musculus with 84 samples.

Results

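Constant distal H3K27ac regions are stretches of the mouse genome, away from gene starts, that carried an H3K27ac peak in colon epithelium whatever the diet, the sex or the transplanted bacteria. Peaks of all 23 deposited H3K27ac lists were merged where they overlapped, and a merged region was kept when it was under 10000 bp wide, had a peak in all 23 lists and had its edges more than 5000 bp from every gene start of the RNA-seq count table. Of 70669 merged regions, 6546 (9.26%) were members of this class, and they made up 36.1 Mb of the 252.1 Mb that carried H3K27ac in any list.

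H3K27ac is an acetyl mark that sits on the nucleosomes beside active promoters and active enhancers. H3K4me1 marks enhancers, active or poised, and tends to be low over the start sites themselves, where trimethylation of the same lysine takes its place. HNF4α is a nuclear receptor of gut, liver, kidney and pancreas that binds as a homodimer to direct repeats with the core CAAAG followed by TCCA or a similar word, and in the intestine it occupies many enhancers of absorptive cells.

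C57BL/6 mice of both sexes, 6 weeks old at the start of the diets, were fed for up to 20 weeks on a low fat diet (LFD, 10% fat) or on a high fat diet (HFD, 60% fat), and colon epithelium was used for ChIP-seq of H3K27ac and H3K4me1 with 3 libraries per sex and diet. HNF4α ChIP-seq was from males of the same diets, with 2 libraries each. Male germ-free C57BL/6 mice on either diet, 6 weeks old when stool was introduced, received stool of male donors on the HFD or the LFD. It was given by gavage for 5 weeks. This gave the groups HFDHFB, HFDLFB, LFDHFB and LFDLFB, named by the recipient's diet and then by the donor's bacteria. They had 3 libraries of H3K27ac ChIP-seq each, apart from 2 in HFDHFB, and 3 of RNA-seq each. All mice of the transplantation thus began without bacteria of their own, and their diets were shorter than in the long-term experiment. Epithelium for ChIP-seq was shaken from the colon in EDTA, whereas the cells for RNA-seq were scraped from it. Whether a library was 1 animal is not given in the sources used here.

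The peak lists give positions without heights or read counts, so the depth behind a peak is unknown and a missing peak cannot be told from a shallow library. The lists held 38317 to 51873 peaks for H3K27ac, 71853 to 79511 for H3K4me1 and 21308 to 27766 for HNF4α. RNA-seq libraries held 39904191 to 48026846 counts. H3K27ac lay within 1000 bp of the starts of all 8 epithelial marker genes in every list, and at no leukocyte, smooth muscle, fibroblast, endothelial, neuronal, mesothelial or pancreatic marker gene did it do so in every list. It did at 2 of 8 adipocyte markers, Cidec and Pck1, and at 1 of 8 liver markers, Ttr. Starts without H3K27ac in any list were 5 of 8 for leukocytes, 4 of 8 for smooth muscle and 7 of 8 for fibroblasts. They were 6 of 8 each for endothelium, for neurons and glia and for pancreas, and 2 of 7 for mesothelium. The other starts of these 7 cell types were marked in some lists. In the RNA, the 8 epithelial markers summed to 10106 to 15677 CPM (counts scaled to library size) per library and the smooth muscle markers to 1185 to 7616 CPM. 1 HFDLFB library reached 533 CPM over 8 pancreatic enzyme genes, against 0.56 to 1.55 CPM in all others, and LFDHFB replicate 3 stood apart at Slc10a2, Atp12a and Cldn8. Fewer cells of a type and less RNA per cell cannot be told apart in such bulk samples.

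To show HNF4α sites of constant distal regions at the level of sequence, sites were taken from members near the genes described here, where HNF4α had a peak in all 4 lists and where the common part of the 4 peaks held an exact HNF4 core. Such sites are a minority. HNF4α had a peak in all 4 lists at 32.5% of members, and 25.4% of the all-list sites in members held a core. The 8 that follow are reference sequence of mm9, read 5′ to 3′ on the forward strand, with the core in capitals. It is any of CAAAGTCCA, CAAAGGTCA, CAAAGTTCA and CAAAGGCCA or the reverse complement, and the name is that of the nearest gene start.
1700016G22Rik, chr13:5566987-5567184: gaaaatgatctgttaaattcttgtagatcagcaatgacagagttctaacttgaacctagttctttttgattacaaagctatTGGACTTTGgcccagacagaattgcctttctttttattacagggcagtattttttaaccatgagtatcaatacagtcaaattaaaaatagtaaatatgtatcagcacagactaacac
Klf5, chr14:99680326-99680503: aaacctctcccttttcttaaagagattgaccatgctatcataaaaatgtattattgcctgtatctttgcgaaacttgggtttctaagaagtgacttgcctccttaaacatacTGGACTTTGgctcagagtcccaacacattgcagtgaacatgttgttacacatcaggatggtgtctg
Foxp1, chr6:99221867-99222042: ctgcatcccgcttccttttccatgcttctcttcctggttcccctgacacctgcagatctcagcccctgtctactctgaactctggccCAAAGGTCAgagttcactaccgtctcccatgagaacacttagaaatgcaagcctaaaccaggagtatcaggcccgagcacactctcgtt
Edn1, chr13:42384979-42385185: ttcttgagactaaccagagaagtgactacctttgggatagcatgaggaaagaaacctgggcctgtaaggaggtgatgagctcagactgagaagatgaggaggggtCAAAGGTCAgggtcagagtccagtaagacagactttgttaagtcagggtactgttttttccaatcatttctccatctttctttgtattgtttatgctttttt
Slc10a2, chr8:5076944-5077143: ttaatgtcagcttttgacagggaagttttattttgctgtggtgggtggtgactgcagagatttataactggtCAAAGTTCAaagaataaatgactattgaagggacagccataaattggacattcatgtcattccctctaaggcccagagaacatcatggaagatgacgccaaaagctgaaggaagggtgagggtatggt
Fat1, chr8:45790313-45790516: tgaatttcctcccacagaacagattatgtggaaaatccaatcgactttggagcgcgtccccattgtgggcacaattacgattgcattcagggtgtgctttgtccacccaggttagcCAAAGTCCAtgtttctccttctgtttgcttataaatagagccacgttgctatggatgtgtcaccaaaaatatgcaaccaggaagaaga
Atp1b1, chr1:166473251-166473416: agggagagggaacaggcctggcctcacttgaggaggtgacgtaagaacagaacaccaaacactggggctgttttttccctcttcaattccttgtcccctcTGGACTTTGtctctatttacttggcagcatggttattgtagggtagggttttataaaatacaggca
Acsl1, chr8:47534742-47534900: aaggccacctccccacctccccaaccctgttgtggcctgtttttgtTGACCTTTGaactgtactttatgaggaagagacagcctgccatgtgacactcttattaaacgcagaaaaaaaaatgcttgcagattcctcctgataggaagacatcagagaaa

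All 8 sites were in members with an H3K4me1 peak in all 12 lists, and 7 were intergenic, while the site nearest the start of Foxp1 lay in an intron of Eif4e3. The Klf5 site lay in a region of 7600 bp whose edge was 15.9 kb from the Klf5 start, and H3K27ac peaks covered between 50% and all of that region, depending on the library. The Edn1 region was the closest of the 8 to its gene, at 8.45 kb. The Slc10a2 site also held a word of the CDX factors, TTTATTGC or TTTATGGC on either strand. The cores lay 3.0 to 29.5 bp from the centre of the sites, 4 on the forward and 4 on the reverse strand.

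The rule left members of 1200 to 9800 bp, with a median width of 5200 bp and a middle range of 4000 to 7000 bp. The closest member lay 5006 bp from a gene start, and the farthest constant region left out as proximal lay at 4990 bp. A further 1760 constant distal regions were left out for a width of 10000 bp or more. There were 1452 distal regions of the allowed width with a peak in 22 of the 23 lists. Of these, LFDLFB replicate 3 alone lacked 214 (14.7%) and LFDHFB replicate 2 lacked 185 (12.7%), whereas HFD male replicate 2 lacked 7.

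Members were not fixed in extent. Within them, H3K27ac peaks covered 48.1% to 68.8% of the base pairs, depending on the library. Means over the 3 libraries of a group, with their SD, were 63.7 ± 5.79% for males on the HFD, 63.8 ± 3.35% for males on the LFD, 61.8 ± 2.92% for females on the HFD and 56.0 ± 1.34% for females on the LFD. Among recipients it was 57.2 ± 5.17% (SD, n = 2) in HFDHFB, 57.1 ± 1.37% (SD, n = 3) in HFDLFB, 50.9 ± 1.07% (SD, n = 3) in LFDHFB and 54.0 ± 5.70% (SD, n = 3) in LFDLFB. These values come from the peaks that chose the members and are given without a test. For the median member, the library with the least coverage had 30.4% of its bases under a peak and the library with the most had 88.2%. Only 706 members (10.8%) were covered over at least 50% of their length in every list, and 1990 (30.4%) were 1 unbroken peak in every list.

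By the protein-coding genes of the GENCODE annotation, 3079 members (47.0%) were intergenic, 1709 (26.1%) lay in introns and 1758 (26.9%) overlapped an exon. The shares were 45.1%, 32.2% and 22.6% in intermittent distal regions and 31.9%, 45.4% and 22.7% in rare distal regions. Both classes, defined below, are distal regions with H3K27ac in fewer lists. The median distance to a gene start of the count table was 30.2 kb, with 4379 members (66.9%) within 50000 bp and the farthest at 1581 kb. Distal here refers to that table: 943 members (14.4%) had the start of some GENCODE transcript within 1000 bp, and 431 (6.58%) that of a protein-coding one. In intermittent distal regions these shares were lower, at 8.86% and 3.31%, and in rare distal regions they were 7.70% and 2.46%. The classes were not matched for width here. Members were often neighbours, at a median gap of 32.2 kb to the nearest other member. Among autosomes their density went from 2.08 per Mb on chromosome 14 to 4.12 per Mb on chromosome 19. It was 0.53 per Mb on X, with 89 members, and Y had none. As a share of the merged regions of the chromosome, members differed less, with 9.32% on chromosome 14, 10.5% on 19 and 7.51% on X.

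Nearly all members carried H3K4me1, which the rule did not use. An H3K4me1 peak was present in all 12 lists at 6388 members (97.6%), in some lists at 150 and in none at 8 (0.122%). The share with a peak ran from 98.9% to 99.6% across the 12 libraries. Intermittent distal regions, which met the same limits on width and distance but had H3K27ac in 12 to 22 lists, carried H3K4me1 in all 12 lists at 91.3% of 8901. Rare distal regions, with H3K27ac in 1 to 11 lists, did so at 33.9% of 35351. Constant proximal regions, within 5000 bp of a gene start, did so at 92.2% of 8025. Part of this contrast went with width: among regions 2000 to 4000 bp wide the shares were 93.2% in constant distal, 91.3% in intermittent distal, 52.3% in rare distal and 83.7% in constant proximal regions.

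**Figure D1:**
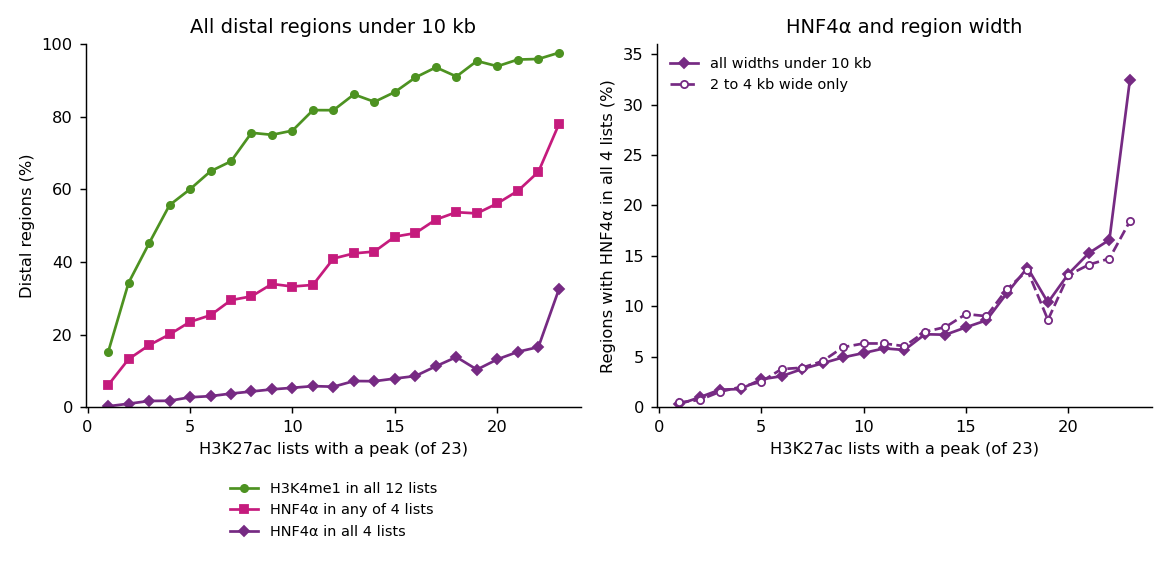
Distal regions under 10000 bp wide by the number of H3K27ac lists with a peak (x axis, 1 to 23; the point at 23 is the constant class). Left, percent of regions with H3K4me1 in all 12 lists, HNF4α in any list or HNF4α in all 4 lists; right, the last of these over all widths and for regions 2000 to 4000 bp wide only, where it ends at 18.4% instead of 32.5%.

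The share of distal regions with H3K4me1 in all 12 lists rose from 15.1% at 1 H3K27ac list to 95.9% at 22 and 97.6% at 23. HNF4α in any list went from 6.08% to 64.8% and 77.9% over the same points. HNF4α in all 4 lists went from 0.299% to 16.6% and then to 32.5%, so that its largest step was between 22 and 23 lists. Regions with more H3K27ac lists were wider, with a median of 1200 bp at 1 list, 4000 bp at 22 and 5200 bp at 23, and a merged region can only widen as lists are added. Among regions 2000 to 4000 bp wide, both limits included here and in the other comparisons at this width (1778 members), the values for HNF4α in all 4 lists were 0.489%, 14.7% and 18.4%, and the step at the end was smaller. These shares are descriptions over regions that share the same libraries.

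Diet did not separate the H3K4me1 libraries within the members. Peaks covered 80.3%, 76.7% and 79.9% of the members' base pairs in the 3 HFD males and 80.3%, 80.4% and 79.7% in the 3 LFD males. In females the values were 78.8%, 78.6% and 77.6% on the HFD and 76.7%, 77.9% and 77.8% on the LFD. The diets overlapped, with HFD male replicate 2 among the lowest of all 12 libraries and LFD female replicate 1 the lowest. Mean coverage over 6 libraries per diet was 78.7 ± 1.35% (SD) for HFD and 78.8 ± 1.53% (SD) for LFD mice, a difference of −0.13 percentage points that was within the spread between libraries (two-sided exact permutation test within sex, p = 0.905). The share of members with a peak differed by −0.013 percentage points (exact permutation test, p = 0.965), and it stood at 99.3% on either diet. By sex this share went in opposite directions. It was 99.27% to 99.53% in HFD females and 99.02% to 99.25% in LFD females, without overlap. In males it was 98.85% to 99.48% on the HFD and 99.36% to 99.63% on the LFD. The diet difference in this share was not tested by sex. So close to its upper limit, that share left little room for a difference. Members were also chosen for an H3K27ac peak in every list of both diets, so these tests do not speak for H3K4me1 elsewhere.

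Males had more of the members' length under H3K4me1 than females, with 79.6 ± 1.40% (SD, n = 6) against 77.9 ± 0.757% (SD, n = 6). The difference of 1.65 percentage points had p = 0.045 in a two-sided exact permutation test within diet, or 0.18 after Benjamini-Hochberg adjustment over the 4 permutation tests of H3K4me1 by diet and sex. It was carried by 5 of the 6 males, all above every female, while HFD male replicate 2 was below 5 of the 6 females. The call rested on the full set of libraries: without any single library other than HFD male replicate 2 it was lost, with p from 0.055 to 0.12, and without that male it was 2.21 percentage points (exact permutation test, p = 0.005). Male lists also held more H3K4me1 peaks, 77417 ± 2976 (SD, n = 6) against 74545 ± 1990 (SD, n = 6), and males were higher by 1.99 percentage points in intermittent distal regions and by 0.844 in constant proximal regions. The part of list size in the difference was not tested. The diet difference in females was 2.03 percentage points above that in males, which did not pass (exact permutation test, p = 0.105), and it passed only without HFD male replicate 1, at 2.69 percentage points (p = 0.03, exact permutation test).

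**Figure D2:**
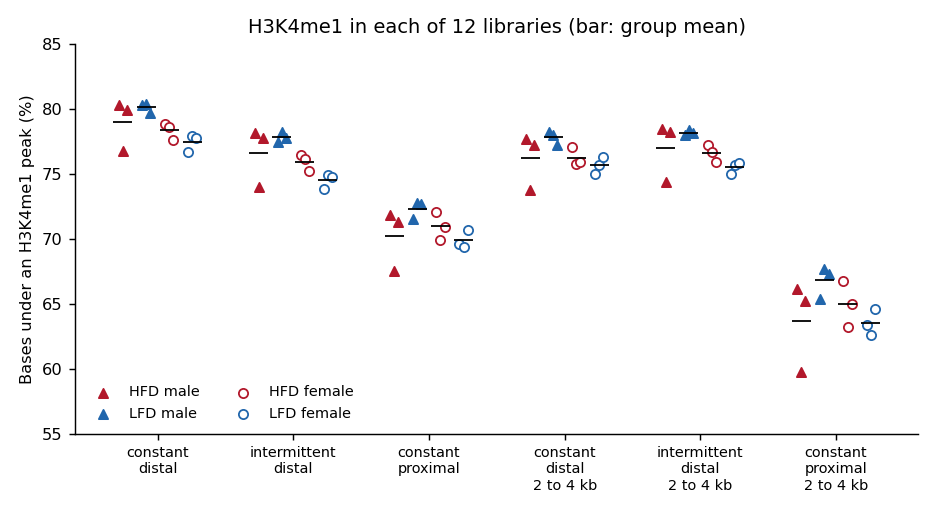
Percent of base pairs under an H3K4me1 peak (y axis, not from 0) in each of 12 libraries, for constant distal, intermittent distal and constant proximal regions of all widths under 10000 bp and of 2000 to 4000 bp only; short bars are group means. HFD and LFD libraries overlap within each class, constant proximal regions are lowest, and the gap between constant and intermittent distal regions is absent among the narrow ones.

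H3K4me1 covered more of the constant distal than of the constant proximal regions. Means over the 12 libraries were 78.7 ± 1.38% and 70.8 ± 1.53% (SD, n = 12), and the constant distal regions were higher by 7.89 percentage points in 12 of 12 libraries (two-sided exact sign-flip permutation test, p = 0.000488, the smallest it can give). Among regions 2000 to 4000 bp wide the difference was 11.7 percentage points. Against intermittent distal regions, at 76.2 ± 1.63% (SD, n = 12), the difference was 2.52 percentage points in 12 of 12 libraries with the same p in that permutation test. That difference depended on width: at 2000 to 4000 bp the constant regions were lower, with 76.5% against 76.8%, and higher in 4 of 12 libraries (exact sign-flip permutation test, p = 0.0425). These tests ask whether libraries agree, since the regions are the same in each.

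Aligned at their centres, members had H3K4me1 over 94.4% of bases at the centre, against 22.6% more than 4000 bp away. Intermittent distal regions reached 92.7%. In constant proximal regions the mark dipped at the centre, to 68.9%, below a maximum of 75.9% to the sides.

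**Figure D3:**
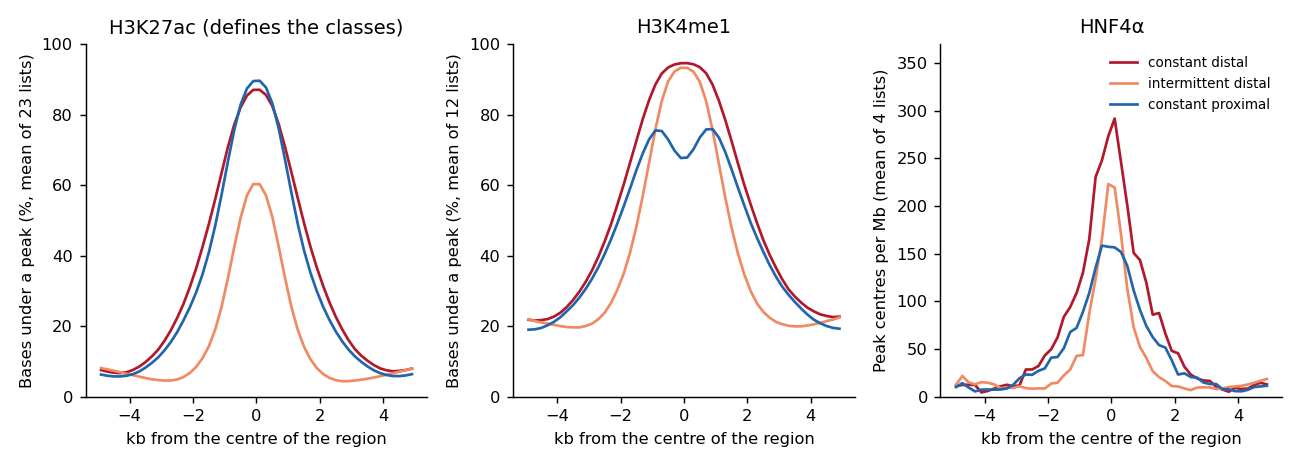
Mean profiles around the centre of constant distal, intermittent distal and constant proximal regions (x axis, kb from the centre). Left and middle, percent of bases under an H3K27ac peak, which defines the classes, and under an H3K4me1 peak; right, HNF4α peak centres per Mb, which peaked at 292 in constant distal, 223 in intermittent distal and 159 in constant proximal regions.

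The 8 members without H3K4me1 in any list had a median width of 1800 bp. The 3 widest of them were chrX:98526401-98529400, intergenic and 31.9 kb from the start of Nlgn3, chr12:17887601-17890000 in an exon of Gm9222, and chr13:74599001-74601200, intergenic and 30.2 kb from the start of Zfp825. The second of these contained the start of a GENCODE transcript. The first and the second had a ratio of observed to expected CpG of 0.71 and 0.84 in their central 1000 bp, where the median member had 0.21. A ratio above 0.6 is usual for CpG islands, and 215 members (3.28%) were above it, against 42.5% of constant proximal regions. The Zfp825 region had 0.42.

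HNF4α peaks lay in most members. Of 6546, 53.1% and 53.4% had a peak in the HFD male libraries and 61.6% and 50.1% in the LFD male libraries. The LFD libraries lay on either side of the HFD libraries, and LFD male replicate 1, the highest, also had the longest list, with 27766 peaks against 21308 to 22639 in the other 3. The means of 2 libraries, 53.3 ± 0.184% (SD) for the HFD against 55.9 ± 8.12% (SD) for the LFD, differed by −2.57 percentage points (two-sided exact permutation test, p = 1), and with 2 libraries against 2 no p below 0.333 can be reached. Without LFD male replicate 1 the difference was 3.17 percentage points. A peak was present in all 4 lists at 2125 members (32.5%), in 1, 2 or 3 lists at 1115, 908 and 952, and in none at 1446 (22.1%). Both HFD lists and no LFD list had a peak at 110 members (1.68%), beside 0.841% of all 70669 merged regions, and both LFD lists and no HFD list at 201 (3.07%), beside 1.42%. Of the regions with a peak in exactly 2 lists, the first pattern held for 12.1% of members and 11.6% of all, and the second for 22.1% and 19.6%.

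HNF4α was denser in the members than in the other classes. Per Mb of constant distal region there were 112, 114, 136 and 104 peak centres in HFD replicates 1 and 2 and LFD replicates 1 and 2, and per Mb of intermittent distal region there were 84.6, 79.3, 105 and 67.5. In constant proximal regions the values were 76.4, 81.3, 101 and 82.4 per Mb. Every library had its highest density in the constant distal class. The mean difference was 32.4 ± 4.05 per Mb (SD, n = 4) from the intermittent distal class and 31.4 ± 6.49 per Mb (SD, n = 4) from the constant proximal class, each with p = 0.125 in a two-sided exact sign-flip permutation test, the smallest that 4 libraries allow. Among regions 2000 to 4000 bp wide the differences were 27.05 and 41.7 per Mb. As shares, HNF4α in all 4 lists was found in 11.5% of intermittent distal, 1.38% of rare distal and 14.2% of constant proximal regions, and at 2000 to 4000 bp in 18.4%, 10.8%, 2.84% and 5.99% of the 4 classes, constant distal first.

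**Figure D4:**
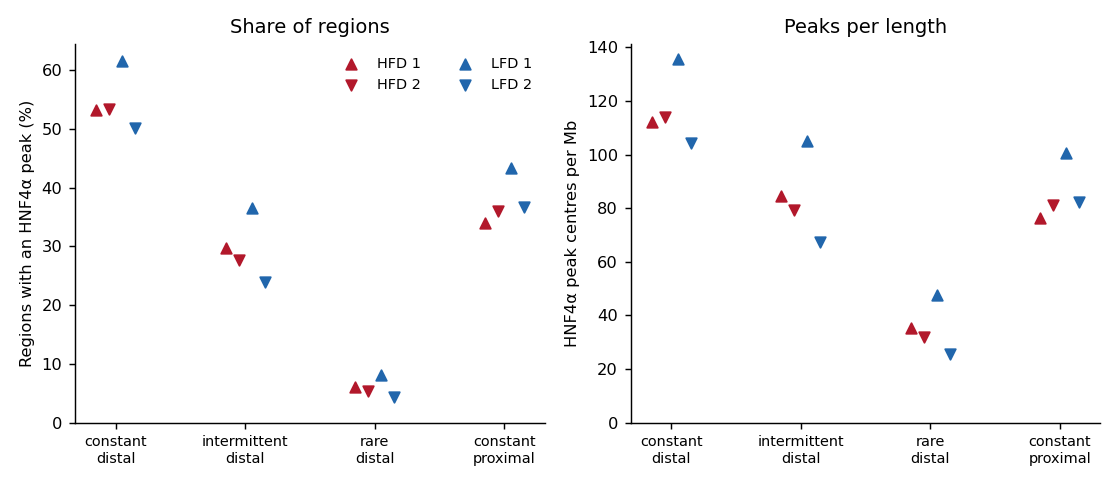
Percent of regions with an HNF4α peak (left) and HNF4α peak centres per Mb of region (right) in each of 4 libraries from HFD and LFD males, for 4 classes of H3K27ac region. Constant distal regions are highest in every library on both measures, and LFD replicate 1 is above the other 3 libraries throughout.

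Wider members more often held HNF4α. In bins that leave out their upper limit, the share with a peak in all 4 lists was 16.2% from 2000 to below 4000 bp (1515 members), 31.0% from 4000 to below 6000 bp, 41.6% from 6000 to below 8000 bp and 47.5% from 8000 to below 10000 bp, whereas peaks per Mb went from 124 to 105 over the same bins. Members with HNF4α in all 4 lists had a median width of 6000 bp and those with none 4400 bp. Intergenic members had HNF4α in all 4 lists at 36.2%, exonic ones at 29.5% and intronic ones at 28.7%, with 132, 102 and 105 peaks per Mb. Introns had the most H3K4me1, at 82.8% of base pairs against 78.2% in intergenic and 75.9% in exonic members.

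Seen from the factor, the 4 lists merged to 49524 HNF4α sites, of which 6887 (13.9%) lay in members. The more lists a site was found in, the more often it lay there: 8.42% of the 27383 sites of 1 list and 25.1% of the 8494 sites of all 4 lists. This was not particular to members, since H3K27ac regions of 10000 bp or wider held 11.6% and 39.7% of these sites. Constant proximal regions held 12.9% and 12.8%. Conversely, 45.0% of the sites of 1 list and 2.78% of the sites of all 4 lists lay outside every H3K27ac region. HNF4α sites were central, at a median of 677 bp from the middle of their member, and 82.98% were within its inner 50%. Peak centres reached 265 per Mb at the centre of members and 11.02 per Mb more than 4000 bp away, a ratio of 24.04, against ratios of 12.8 in intermittent distal and 16.8 in constant proximal regions. Centre and flank were 195 and 15.3 per Mb in intermittent distal and 156 and 9.30 per Mb in constant proximal regions. These ratios were not matched for width.

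HNF4α sites averaged 1.05 per member, and 1561 members (23.8%) had 2 or more, against 6.93% of intermittent distal and 16.4% of constant proximal regions. At 2000 to 4000 bp the shares were 8.83%, 5.02% and 5.63%. The 2 members with 5 sites were chrX:11897401-11903800, 28.3 kb from the start of Gm14635, and chr3:126340401-126349000 in an intron of Camk2d, which encodes a calcium and calmodulin dependent kinase. Only 1 of the 5 sites near Gm14635 and none of those in Camk2d was found in all 4 lists. At chr5:113642401-113650600, 5.33 kb from the start of Tmem211, all 4 sites were found in all 4 lists. The regions chr1:69510801-69520400, 212.1 kb from the start of Ikzf2, and chr7:104934401-104944200 in Pak1, a kinase of the actin cytoskeleton, had 3 and 2 of 4 sites in all lists. The region in Pak1 contained the start of a GENCODE transcript. The widest member, chr1:10243201-10253000 near Arfgef1, had 9800 bp and 1 site, and the member farthest from a gene start, chr8:6686601-6690200, lay 1581 kb from Slc10a2 with 1 site found in all 4 lists.

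The letters of the members were searched for 6 groups of short words on both strands in the central 1000 bp. An HNF4 core, as in the printed sites, was found in 10.8% of members, 11.4% of intermittent distal, 9.001% of rare distal and 6.08% of constant proximal regions, and in 8.95% of all merged regions. The AP-1 word TGACTCA or its reverse complement, the site of Fos and Jun dimers, was in 23.02% of members, 22.96% of intermittent distal and 12.5% of constant proximal regions, and in 19.5% of all. The CDX words were in 8.91% of members and 8.35% of all regions, the KLF word GGGTGTGG in 12.02% and 10.3%, the GATA word AGATAAG in 14.5% and 13.8%, and the FOXA word TGTTTAC in 16.8% and 15.9985%. In intermittent distal regions these 4 groups of words were in 10.5%, 11.5%, 15.2% and 17.9%. Within the members, the HNF4 core was in 16.6% of those with HNF4α in all 4 lists, 8.81% of those with it in 1 to 3 lists and 6.22% of those with none. Around the sites themselves, in 200 bp, the core was found at 540 of the 2128 all-list sites in members (25.4%), at 108 of the 236 outside H3K27ac (45.8%) and at 6.16% of the sites of 1 list in members. Each group of words was counted on its own, whether or not its match overlapped that of another group.

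Each member was assigned to the gene with the nearest start, which is a matter of position and not a record of control. Members had 4126 nearest genes, 16.9% of the 24468 symbols in the count table. Of these, 2774 had 1 member, 575 had at least 3 and 115 at least 5. A total of 1144 members (17.5%) were nearest to a gene that was below 0.5 CPM in all 12 RNA-seq libraries, and 148 of the nearest genes were named as microRNA or small nucleolar genes, which such libraries count poorly.

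The 10 genes with the most members included 3 Krüppel-like factors. Klf5, which maintains proliferating crypt cells, was nearest to 11 members, between 15.9 and 384.7 kb from its start, 5 of them with HNF4α in all 4 lists. Klf4, a factor of goblet and surface cell differentiation, had 10 members and 6 with HNF4α in all lists. Klf6 had 9, and 1700016G22Rik had 11, but the starts of these neighbours lie on chromosome 13 at 5860735 and 5857338, so that members on one side were counted for the second, which had 0 to 0.28 CPM. Slc10a2, the sodium-dependent bile acid transporter, had 10 members, and 7 of these had HNF4α in all 4 lists. The others were Foxp1, a forkhead repressor, and Edn1, the precursor of endothelin-1, with 10 each, Arid1b, a subunit of a chromatin remodelling complex, with 9, and Fat1, an atypical cadherin, and Plcl2, a phospholipase C-like protein, with 8 each. HNF4α differed among them, since all 4 lists had a peak at 4 of 8 members of Fat1, at 1 of 8 of Plcl2 and at none of 9 of Arid1b.

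Genes of known colonic roles were taken from 9 lists. Among 15864 tested genes with a single locus, 21.2% were nearest to a member. For colonocyte ion and water transport it was 14 of 22 (63.6%), with 6 members at Atp1b1, a subunit of the sodium pump, 4 at Atp12a, the colonic proton-potassium pump, and 4 at Slc4a4, a sodium bicarbonate cotransporter. All 4 Atp12a members had HNF4α in all lists. Intestinal identity factors had 19 of 30 (63.3%), led by Klf5, Klf4, the retinoid partner receptor Rxra with 4 and the nuclear receptor Nr5a2 with 3. Lipid and ketone metabolism had 13 of 24 (54.2%), with 4 members at the coactivator Ppargc1a, 3 each at Acsl1 and Acsl3, which activate long-chain fatty acids, and 2 at the desaturase Scd2. None of the 3 Acsl3 members had an HNF4α peak. Junctions, adhesion and brush border had 16 of 31 (51.6%), among them the tight junction genes Cldn8 with 3 and Cldn23 with 2, and Ezr, which encodes ezrin, with 2.

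Goblet and mucus genes counted 8 of 17 (47.1%), with 5 members at Galnt7, which glycosylates mucins, 3 at Atoh1, the switch to secretory cells, and 2 each at the mucin Muc13 and the factor Creb3l1. Growth factor and TGF-beta signalling counted 9 of 21 (42.9%), with 4 members at Egfr and at Bmp2, 3 at Smad3 and 2 at Tgfbr2. AP-1 and ATF factors counted 5 of 12 (41.7%), with 7 members at Fosl2, 2 at Jun and at Fosb and 1 at Fos. Wnt, Notch and stem cell genes were at 7 of 22 (31.8%), with 3 each at Lrig1, a marker of stem cells, and Fzd5, a Wnt receptor, and 2 each at Ephb2 and Ccnd1. Innate defence genes were at 6 of 20 (30.0%), with 2 each at Tlr4 and the NF-κB inhibitors Nfkbia and Tnfaip3 and 1 at Nfkb1. Of marker genes of other cell types, 1 of 8 was nearest to a member for leukocytes, 1 for smooth muscle, 2 for fibroblasts, 4 for endothelium and 0 for neurons and glia, beside 4 of 8 epithelial markers. The lists are small and were chosen with earlier results known, and these counts are descriptions.

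Genes with more members were more highly expressed. Levels are per length here, as counts scaled to exon length and library size (RPKM), in the 12 RNA-seq libraries of recipients. Genes nearest to no distal H3K27ac region had a median of 0.17 RPKM (median of libraries, n = 9600 genes), those nearest to rare distal regions only 2.39 RPKM and those with intermittent distal regions but no member 2.98 RPKM. With 1 member it was 4.34 RPKM (2353 genes), with 4.04 in the lowest and 4.60 in the highest library. It was 7.13 RPKM with 2 members, 8.46 with 3 or 4 and 8.87 with 5 or more (100 genes). The ranges over libraries of the last 2 groups overlapped, at 7.77 to 9.72 and 7.36 to 9.57 RPKM. The share of genes at 1 RPKM or more went from 37.2% without a distal region to 88.0% with 5 or more members.

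**Figure D5:**
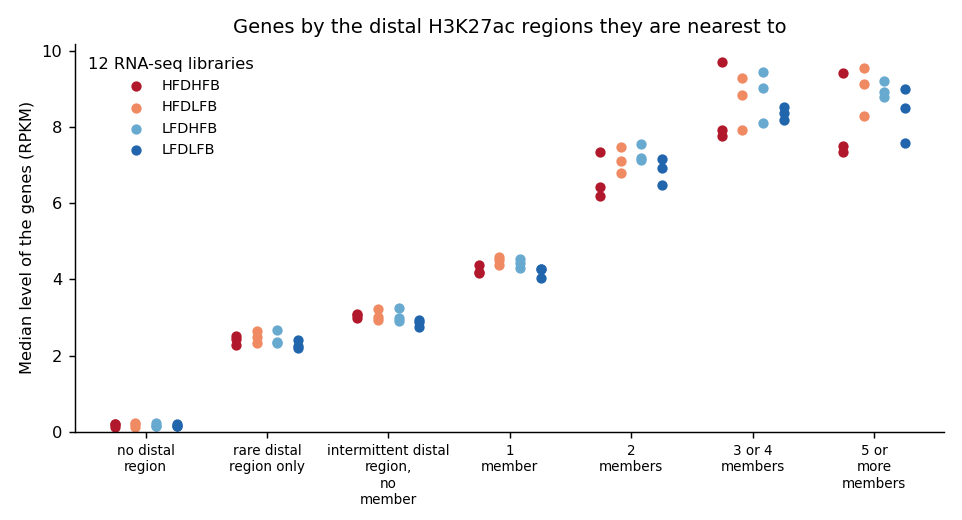
Median level in RPKM (y axis, from 0) of genes grouped by the distal H3K27ac regions they are the nearest gene of, where member stands for a constant distal region; each point is 1 of 12 RNA-seq libraries, coloured by group. Medians go up from 0.17 without a distal region to 8.87 with 5 or more constant ones, and the points of the last 2 classes overlap.

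Part of that order went with the genes' own starts. A constant H3K27ac region lay at the start of 66.2% of nearest genes and of 44.5% of other genes. Among genes with a constant region at the start, the medians were 7.18 RPKM without a distal region, 7.25 with rare and 7.56 with intermittent ones, then 9.16 with 1 member, 10.6 with 2, 11.11 with 3 or 4 and 11.08 with 5 or more, so that medians went up as far as 3 or 4 members, over a smaller range, and no further. Genes with HNF4α in all 4 lists at 1 or more members had a median of 7.01 RPKM (1442 genes), those with HNF4α in 1 to 3 lists at most 4.64 (1484) and those without it 4.10 (574). Among genes with a single member the values were 5.48, 3.93 and 3.98 RPKM, and the latter 2 had overlapping ranges over libraries. These are descriptions across genes, which share their libraries.

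Slc10a2 had the widest spread among recipients of the genes with the most members. Its levels were 61.8, 117 and 86.8 CPM in HFDHFB, 271, 65.3 and 159 CPM in HFDLFB, 103, 114 and 768 CPM in LFDHFB and 44.5, 81.2 and 78.8 CPM in LFDLFB. LFDHFB replicate 3 was far above all others, and the same library was the lowest of the 12 for Atp12a, at 56.7 CPM against 750 to 3056 CPM, and for Cldn8, at 13.8 CPM against 28.7 to 90.7 CPM. Klf5 lay at 143 to 263 CPM and Klf4 at 591 to 1224 CPM over the 12 libraries, with all groups overlapping. Per length, the medians were 118 RPKM for Klf5, 278 for Klf4, 74.9 for Klf6, 58.3 for Slc10a2, 17.9 for Edn1 and 4.17 for Arid1b.

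The transplantation asks whether bacteria or diet changed expression. Of 4113 nearest genes with a single locus, 3368 (81.9%) passed the filter on low counts, and by edgeR's quasi-likelihood test with Benjamini-Hochberg adjustment 0 of them passed an adjusted p of 0.05 in any of the 5 comparisons, as did 0.0% of all 15893 genes. At an unadjusted p under 0.05 in HFDHFB against HFDLFB there were 249 nearest genes (7.39%), beside 9.07% of all genes, of which 110 (3.27%) were higher, beside 4.85%, and 139 (4.13%) lower, beside 4.22%. In LFDHFB against LFDLFB there were 141 (4.19%), beside 3.72%, with 112 (3.33%) higher, beside 2.01%, and 29 (0.861%) lower, beside 1.72%. With bacteria of HFD donors the diets differed at 226 (6.71%), beside 7.46%, with 94 (2.79%) higher on the HFD, beside 5.25%, and 132 (3.92%) lower, beside 2.21%. With bacteria of LFD donors they differed at 161 (4.78%), beside 5.33%, with 101 (2.999%) higher on the HFD, beside 3.57%, and 60 (1.78%) lower, beside 1.76%. For the interaction of diet and bacteria there were 330 (9.80%), beside 11.3%, with 123 (3.65%) positive, beside 6.34%, and 207 (6.15%) negative, beside 4.95%. Taken over both directions, these shares were near the background, and none of these genes passed adjustment. Median log2 fold changes of the nearest genes were between −0.11 and 0.04, against −0.05 and 0.02 for all genes.

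DESeq2, run as an alternative, called a few. In HFDHFB against HFDLFB it called 9 of 3441 nearest genes (0.262%), beside 0.487% of all genes, and in HFDHFB against LFDHFB 16 of 2823 (0.567%), beside 1.06%. In HFDLFB against LFDLFB it called 3 (0.0785%), beside 0.0463%, for the interaction 10 (0.386%), beside 0.692%, and in LFDHFB against LFDLFB 0, beside 0.0%. The comparisons share libraries, so that they are not independent of each other. The genes named for these calls were chosen after their values were seen, as those with the smallest p in each direction.

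In HFDHFB against HFDLFB the smallest p was that of Fmo2, a flavin-containing monooxygenase. It had 23.5, 37.01 and 40.6 CPM in HFDHFB and 284, 218 and 73.03 CPM in HFDLFB, without overlap, at an adjusted p of 0.000649 by DESeq2 and 0.495 by edgeR. Pon1, which encodes paraoxonase, was low throughout, with 0, 0.086 and 0 CPM against 0.49, 3.12 and 0.55 CPM. Ap4e1, a subunit of an adaptor complex of vesicle transport, had 10.8, 9.17 and 9.96 CPM against 15.6, 19.9 and 15.4 CPM. Of the 9 genes, 7 were lower in HFDHFB, and the 2 that were higher were Cmc2 and Kpna2. Cmc2, a mitochondrial protein, had 18.2, 18.6 and 19.96 CPM against 14.1, 13.95 and 13.8 CPM. Kpna2, which encodes an importin, had 114, 88.6 and 92.3 CPM against 55.02, 65.7 and 73.8 CPM. None of these groups overlapped.

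In HFDHFB against LFDHFB the smallest p was that of Slc2a5, the fructose transporter. Its levels were 5.85, 8.31 and 6.68 CPM against 14.1, 13.9 and 14.9 CPM, again without overlap, at an adjusted p of 0.000626 by DESeq2 and 0.2995 by edgeR. The next lower genes were Foxn3 and Gramd1b. Cmc2 was called in this comparison too, with 13.7, 12.2 and 12.8 CPM in LFDHFB, followed among the higher genes by Mrpl33 and Mrps10, which encode proteins of the mitochondrial ribosome. For the interaction they were Cmc2, Mrps10 and Ptges2 on the positive side and Ap4e1, Fmo2 and Foxn3 on the negative side, most of them genes of the comparisons above, with which it shares libraries.

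Acsl1 was also among the 9 genes of HFDHFB against HFDLFB. Its levels were 50.5, 47.2 and 39.0 CPM in HFDHFB and 81.7, 172 and 77.4 CPM in HFDLFB, and every HFDHFB library was below every HFDLFB library. The log2 fold change was −1.28 ± 0.32 (SE), with an adjusted p of 0.495 by edgeR and 0.0332 by DESeq2. Summed levels of 8 adipocyte markers, none of them at 0, were 181 to 552 CPM in HFDHFB and 519 to 2692 CPM in HFDLFB, and their part in the differences between these groups was not tested. Atoh1 had 53.7, 62.6 and 56.6 CPM in HFDHFB and 29.8, 38.7 and 46.2 CPM in HFDLFB, again without overlap, at a log2 fold change of 0.59 ± 0.16 (SE) with an adjusted p of 0.495 by edgeR. Unlike Acsl1, Atoh1 was not called by DESeq2 either, so no change was found for it. The 3 genes that DESeq2 called in HFDLFB against LFDLFB, named after their values were seen, were Pla2g4c, a phospholipase, Esr1, the oestrogen receptor, and Sucnr1, the succinate receptor. Esr1, with 3 members, had 6.38, 7.67 and 4.66 CPM in HFDLFB and 3.15, 2.78 and 3.11 CPM in LFDLFB. Pla2g4c had 0.74, 0.51 and 0.87 CPM against 2.82, 2.82 and 2.47 CPM. Sucnr1 had 3.38, 6.99 and 1.08 CPM against 0.43, 0.15 and 0.069 CPM. In all 3 the groups did not overlap, and edgeR gave each an adjusted p of 0.881. The 8 adipocyte markers did not overlap between these groups either, with 519 to 2692 CPM in HFDLFB and 253 to 409 CPM in LFDLFB. Their part in these differences was not tested.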

How the data were processed

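Colon epithelium of mice was measured by ChIP-seq of H3K27ac (23 lists), H3K4me1 (12) and HNF4α (4). Cells scraped from the colon were measured by RNA-seq (12 libraries). The authors aligned ChIP-seq reads to mm9 with Bowtie 0.12.8, removed duplicates with Picard 1.110 and called peaks in each library, using HOMER for HNF4α and, for the histone marks, SICER (window 200 bp, gap 200 bp for H3K27ac and 400 bp for H3K4me1, FDR 0.001). The deposited lists hold starts and ends only. HNF4α peaks have 1 fixed width per list, between 220 and 242 bp. For RNA-seq the authors deposited raw counts per gene, made with STAR 2.5 and featureCounts 1.5.0-p1, and whether strand was used is not given in the sources used here. Inputs and other assays of the study were not used here.

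Peaks sharing at least 1 bp were merged, and gene starts were taken from the loci and strands of the count table. Gene bodies, exons and sequence came from the NCBIM37 (mm9) reference with GENCODE annotation. An H3K4me1 or HNF4α peak was counted in a region at an overlap of 1 bp, and peaks per Mb used peak centres. Shares of libraries were put to exact permutation tests, two-sided. Groups were taken from the sample labels. RNA-seq counts were tested in R 4.3.3 with edgeR 4.0.16 (TMM, filterByExpr, quasi-likelihood F-test, 4 groups in 1 fit, Benjamini-Hochberg adjustment over 15893 genes). CPM used library sizes scaled by TMM. RPKM used the merged GENCODE exon length, found for 20345 symbols (84.6%). DESeq2 1.42.0 was an alternative, as were other limits of width, distance, overlap and lists, other scaling and filtering, leaving out single libraries, and a replicate block. Python 3.11.15 with pysam 0.24.0 and scipy 1.17.1 was used, and steps were tested on simulated data.

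Members, comparison classes and gene lists were chosen with earlier results of these data known. Genes named are the 10 with the most members, up to 4 per list of function with the most members, those past an adjusted p of 0.05 by edgeR, of which there were none (the genes named for DESeq2 calls were added after their values were seen) and those of regions extreme in width, distance, HNF4α sites or H3K4me1; some genes of the lists are not reported here. P-values measure the spread between deposited libraries, which may be in part technical.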

Additional observations from a re-analysis of the deposited data

How the results depend on the processing

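The number of constant distal regions, 6546, was 7998 with a peak required in at least 22 lists and 8306 without a width limit. At more than 10000 bp from gene starts it was 5589, and by the starts of GENCODE protein-coding transcripts only it was 6205. It was 9937 with only the 12 long-term lists and 8890 with only the 11 transplant lists, the latter added after seeing the data, and 6597 to 6786 with each list left out, since fewer lists are required. With each library left out, the diet difference in H3K4me1 share was −0.0649 to 0.0917 percentage points and in covered base pairs −0.463 to 0.429, changing sign without 5 and 2 of the 12 libraries and never passing. The male minus female difference was 1.32 to 2.21 percentage points, and the difference between the diet effects 0.906 to 2.69, both added after seeing the data. HNF4α shares differed by −8.32 to 3.17 percentage points. The reversal of constant against intermittent distal H3K4me1 at 2000 to 4000 bp, to −0.34 percentage points, was the only change of direction outside the left-out libraries. Its cause was not tested. DESeq2 moved the calls among nearest genes from 0 to 9, 16, 3 and 10, in HFDHFB against HFDLFB, HFDHFB against LFDHFB, HFDLFB against LFDLFB and the interaction. All other scalings, filters and left-out libraries in edgeR kept them at 0.

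Same-numbered RNA-seq libraries had correlations of −0.59 to 0.45 in their deviations from the group means, against −0.55 to 0.65 for differently numbered ones. For H3K4me1 libraries the ranges were −0.04 to 0.05 and −0.06 to 0.03. The numbers thus gave no clear sign of pairing, but with 3 libraries per group this check cannot exclude it. With a replicate block the diet differences in H3K4me1 were −0.013 (exact permutation p = 1) and −0.13 percentage points (exact permutation p = 0.938), and edgeR called 0 genes in each of the 5 comparisons. The peak lists give no depth, HNF4α has 2 libraries per diet, and region width, which grows as lists are merged, goes along with the number of lists.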
